A study of Caenorhabditis elegans with 4 samples.

Results

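miR-235 (cel-mir-235 in the table) and miR-71 (cel-mir-71) were followed in small RNA from L1 larvae of *C. elegans*, the stage entered at hatching. Both were chosen by name, as miRNAs known to act in the L1 arrest, and are 2 of the 148 names counted. The 4 libraries came from whole animals synchronized by bleaching, 2 from *pry-1(mu38)* and 2 from the wild type N2. *pry-1* encodes Axin, a scaffold protein that restrains WNT signaling, and the mutant strain carries its *mu38* allele in every cell. Both strains were grown on standard plates at the same temperature, and *pry-1* mutants grow more slowly. For its qRT-PCR the study let mutant L1 larvae grow longer than N2, to match them in age. The *pry-1* mRNA itself was not analysed here. The study describes the profiled animals as late L1 and its culture plates as seeded with *E. coli*. The hours after hatching of the sequenced larvae are not given in the sources used here. The labels do not say whether replicates came from separate cultures, so the p-values measure only the spread between these libraries.

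Larvae that hatch without food stop developing in L1 and can survive for weeks, and feeding restarts their divisions through insulin signaling. miR-235 belongs to the conserved miR-92 family. It keeps neural and hypodermal progenitors quiescent during the arrest, and insulin signaling lowers it once larvae feed. miR-71 supports survival of arrested larvae and adult lifespan, and acts on the insulin pathway. A miRNA pairs with its targets mainly through its seed, bases 2 to 8. No other miRNA among the 161 known ones that the study lists had the seed of miR-235, and none had that of miR-71.

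Both genes lie on chromosome I of WBcel235 on the minus strand. The hairpin of miR-235 spans 6162291 to 6162387, outside protein-coding genes, between T09B4.6 at a distance of 3026 bp and T09B4.8 at 2331 bp. The hairpin of miR-71 spans 9379927 to 9380020, in an intron of *ppfr-1*, a gene that runs in the same direction. On the opposite strand the noncoding RNA gene F16A11.6 overlaps it, and whether the reads were counted by strand is not given in the sources used here. Each hairpin has a miRNA neighbor within 20 kb. miR-1, a muscle miRNA, lies 10274 bp from miR-235, and miR-2 lies 7061 bp from miR-71 in the same *ppfr-1* gene.

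Library sizes were 3284425 counts for replicate 1 and 4651818 counts for replicate 2 of *pry-1(mu38)*, against 6651178 and 6491918 counts for replicates 1 and 2 of N2. In stretches of the table the columns are displaced against each other. The study lists a read total for 126 of the 148 names, and these names were checked against it. Neither miRNA stood intact on a row. For miR-235, the count of *pry-1(mu38)* replicate 1 stood 1 row higher, on the other row of the same name. With it, the 4 counts summed to 2107482, exactly the listed total. Of 686 combinations of counts up to 3 rows away, 1 met that total and no other came within 1% of it. miR-234 and miR-236, the names above and below, were intact. For miR-71, the count of N2 replicate 2 stood 1 row higher, on a row named miR-70. The 4 counts then summed to the listed 207159, and again 1 of 686 combinations met it, while 2 came within 1% of it, the exact one included. miR-70 and miR-72 were displaced in the same way in that library. The rows as deposited fell short of the totals by 354493 reads for miR-235 and 65823 reads for miR-71.

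miR-235 was one of the most abundant miRNAs of these larvae. It had 354493 and 206683 counts in *pry-1(mu38)*, against 886854 and 659452 in N2. These were 10.8% and 4.44% of the counts in the mutant libraries and 13.3% and 10.2% in the N2 libraries. Counting error was small at this depth, and the 95% Wilson interval of the lowest share ran from 4.42% to 4.46%. Such intervals cover counting error within a library only. PCR reads are not independent molecules, so the intervals can be too narrow even for that. miR-235 held rank 3 in *pry-1(mu38)* replicate 1 and in both N2 libraries, behind miR-228 and miR-90. In *pry-1(mu38)* replicate 2 it held rank 6, with miR-72, miR-82 and miR-44 above it as well.

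miR-71 was less abundant by 9.48-fold in mean CPM (counts scaled to 1000000 per library). It had 49517 and 44629 counts in *pry-1(mu38)*, against 45356 and 67657 in N2. Its shares were 1.51% and 0.959% in the mutant libraries and 0.682% and 1.04% in the N2 libraries. Its rank was 15 and 16 in *pry-1(mu38)*, and 19 and 16 in N2. The share was highest in *pry-1(mu38)* replicate 1, while that of replicate 2 lay between both N2 libraries. The mean share of miR-71 was 1.23% ± 0.388 in the mutant and 0.862% ± 0.255 in N2, and that of miR-235 was 7.62% ± 4.49 in the mutant and 11.7% ± 2.25 in N2 (SD, n = 2 libraries each). An exact two-sided permutation test gave p = 0.667 for either miRNA, in a design that cannot go below 0.333.

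To compare the strains, counts were scaled by edgeR's TMM method, which corrects library totals for composition, and fitted by its quasi-likelihood test. miR-235 had 111808 and 41679 TMM-normalized CPM in *pry-1(mu38)*, against 150445 and 92646 in N2. The mutant libraries averaged 76743 ± 49589 and the N2 libraries 121546 ± 40870.2 (SD, n = 2 libraries each). The groups overlapped, because *pry-1(mu38)* replicate 1 lay above N2 replicate 2. The fitted log2 fold change was -0.66 (standard error 0.55, approximate 95% interval -2.12 to 0.79, adjusted p = 0.627, edgeR), so a difference was not detectable against the spread between replicates.

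miR-71 had 15618 and 8999.7 TMM-normalized CPM in *pry-1(mu38)*, against 7694 and 9505 in N2. The mean was 12309 ± 4679.7 in the mutant and 8599.6 ± 1280.5 in N2 (SD, n = 2 libraries each). Here too the groups overlapped, with the lower mutant library below the higher N2 library. The log2 fold change was 0.52 (standard error 0.35, approximate 95% interval -0.41 to 1.45, adjusted p = 0.589, edgeR). The fitted values of the 2 miRNAs therefore lay on opposite sides of 0, and neither passed the test.

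**Figure D1:**
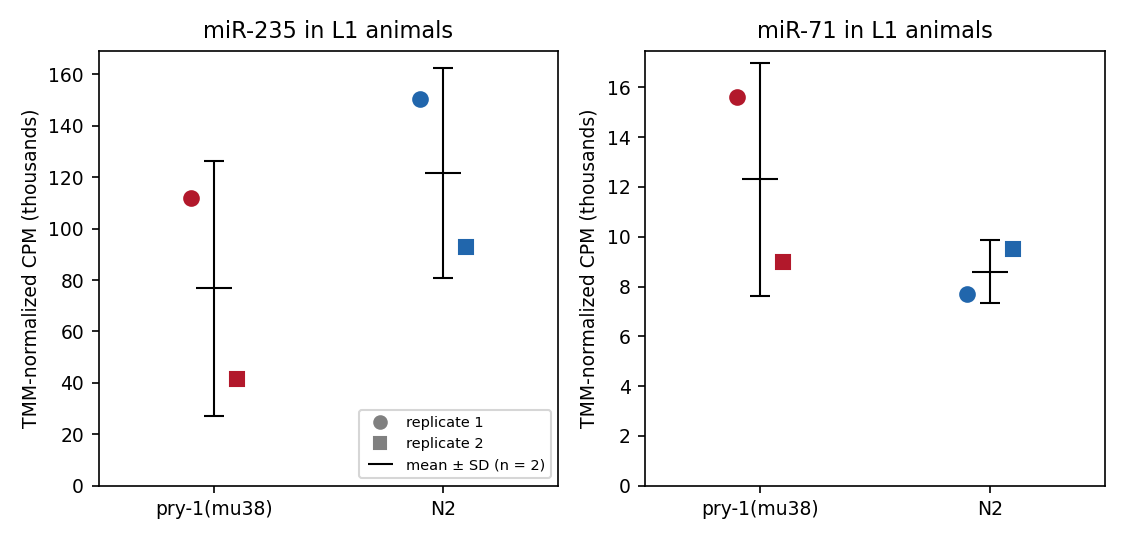
TMM-normalized CPM (in units of 1000, linear axes from 0) of miR-235 and miR-71 in each library, *pry-1(mu38)* left of N2; circles are replicate 1, squares replicate 2, and bars the mean ± SD of 2 libraries. The strains overlap for both miRNAs, and *pry-1(mu38)* replicate 2 is the lowest of the 4 libraries for miR-235 at 41679 CPM.

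The test ran over 85 miRNAs with a usable row. By edgeR, 0 of these (0%) fell under an adjusted p of 0.05, and 6 (7.06%) under an unadjusted p of 0.05. edgeR's exact test and DESeq2's Wald test each called 1, *miR-246*. The median log2 fold change of the 85 was 0.08, with 36 below 0 and 49 above. miR-235 had 7 miRNAs with a lower fitted value, and was 1 of 10 (11.8%) at least 1.5-fold lower in the mutant. miR-71 had 17 miRNAs with a higher value. Smaller p-values were found for 38 miRNAs than for miR-235 and for 29 than for miR-71. Both mutant libraries lay below both N2 libraries for 15 miRNAs (17.6%) and above them for 23 (27.1%), and neither miR-235 nor miR-71 was among these.

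**Figure D2:**
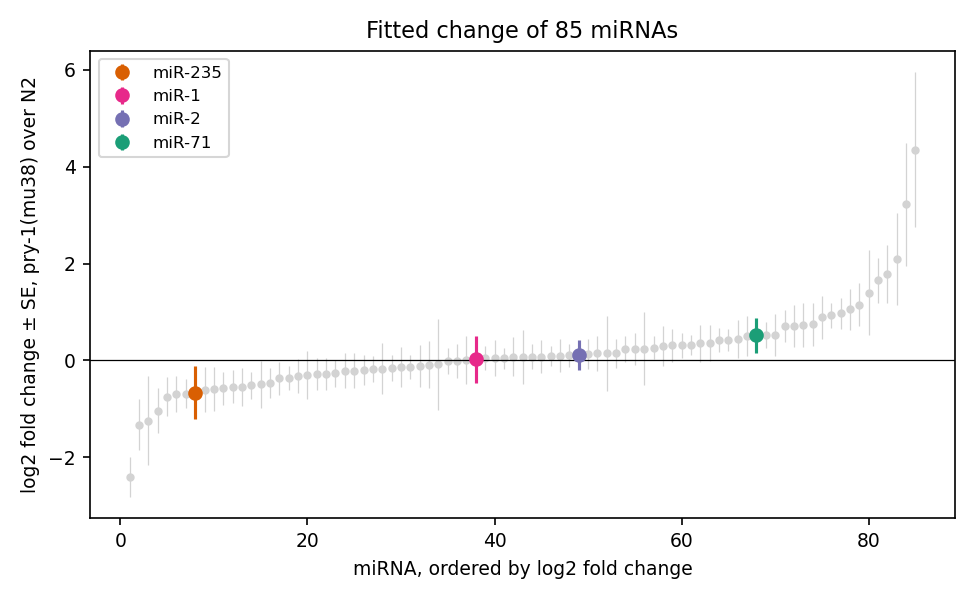
Log2 fold change of *pry-1(mu38)* over N2 with its standard error for 85 miRNAs in rising order (grey), with miR-235, miR-71 and their neighbors miR-1 and miR-2 in color. miR-235 lies near the low end at -0.66 and miR-71 on the higher side at 0.52, while miR-1 and miR-2 lie near 0.

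The replicates of both miRNAs lay farther apart in *pry-1(mu38)* than in N2, and the median gap over the 85 miRNAs was likewise wider in the mutant. For miR-235 the mutant libraries were 2.68-fold apart and the N2 libraries 1.62-fold. In all, 7 of the 85 miRNAs (8.24%) had a wider gap between the mutant libraries, and the median gap was 1.42-fold. For miR-71 the gaps were 1.74-fold in *pry-1(mu38)* and 1.24-fold in N2, and 22 miRNAs (25.9%) had a wider mutant gap. The median N2 gap was also 1.24-fold, and 16 miRNAs (18.8%) had a wider N2 gap than miR-235.

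**Figure D3:**
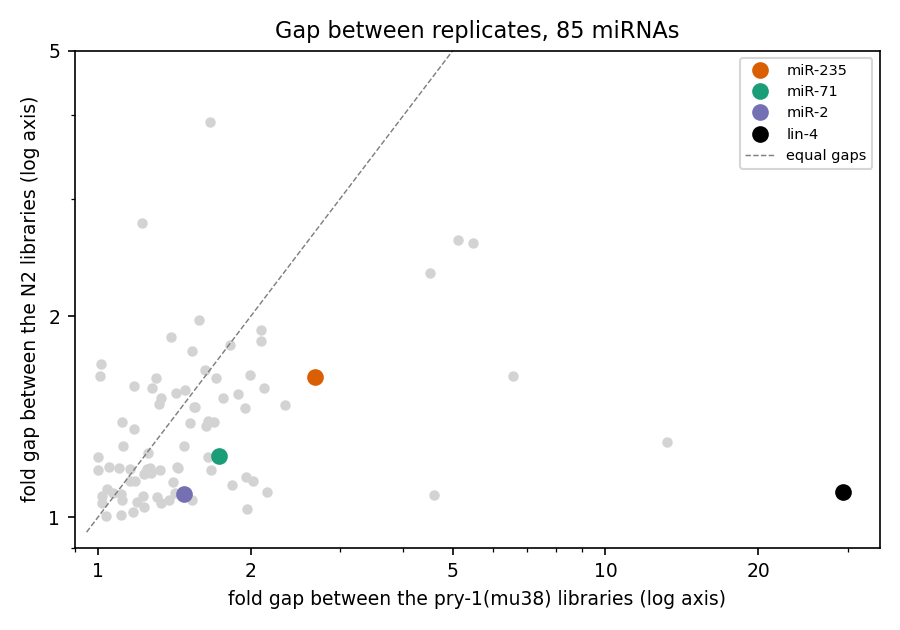
Fold gap between the *pry-1(mu38)* libraries (horizontal) and between the N2 libraries (vertical) for 85 miRNAs, on log axes; the dashed line marks equal gaps. miR-235 (2.68-fold and 1.62-fold) and miR-71 (1.74-fold and 1.24-fold) both lie on the side of the wider mutant gap, and *lin-4* is the farthest point with a mutant gap of 29.3-fold.

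The result for miR-235 rested on which mutant library was kept. Without *pry-1(mu38)* replicate 1 the log2 fold change was -1.49 and passed the test (adjusted p = 0.000116, edgeR), as did 10 of the 86 miRNAs in that fit (11.6%), miR-235 included. Without replicate 2 it was -0.35 (adjusted p = 0.623, edgeR), while the median of all miRNAs moved by -0.23. Without N2 replicate 1 it was -0.27 and without N2 replicate 2 it was -0.97, with edgeR adjusted p-values of 0.967 and 0.801. In such fits a single library stands for its strain and is assumed to vary like the other strain. With all 4 libraries, the alternatives gave adjusted p-values between 0.297 and 0.898. For miR-71 the log2 fold change stayed between 0.11 without *pry-1(mu38)* replicate 1 and 0.68 without N2 replicate 2, with edgeR adjusted p-values from 0.506 to 0.967.

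*pry-1(mu38)* replicate 2 also stood apart in miRNAs that rise through the larval stages. These are *lin-4* and *let-7*, which time stage transitions, and their relatives miR-48, miR-84, miR-241 and miR-237. Apart from *let-7*, the study reports each of them as raised in *pry-1* mutant L1 larvae, by sequencing and by qRT-PCR. The summed level of the list was 1086 and 3176 TMM-normalized CPM in *pry-1(mu38)*, against 495 and 611 in N2. *lin-4* had 24.9 and 745 CPM in *pry-1(mu38)* against 18.0 and 19.7 in N2, while *let-7* had 4.42 and 7.66 against 9.16 and 1.97. Outside this list, miR-228, miR-72, miR-44, miR-1 and miR-124 were also at their highest in replicate 2 of the mutant. A peak in that library was therefore not particular to the list. Most of each sum was miR-237, at 951 and 1857 CPM in *pry-1(mu38)* against 364 and 530 in N2. The library highest in the sum was the lowest in miR-235. The order did not hold further, as *pry-1(mu38)* replicate 1 came next in the sum but had more miR-235 than N2 replicate 2 (111808 against 92646 CPM). How far the levels of the larval-stage miRNAs reflect the mutation or the developmental stage was not tested. The part of developmental stage in the miR-235 values was not tested either. In whole animals, fewer cells of a type cannot be told apart from less miRNA per cell. The 8 names of the embryonic miR-35 family are all in the table, but 0 had a usable row, so their levels could not be compared. The muscle miRNA miR-1 and the neuronal miR-124, *lsy-6* and miR-791 were present in every library, at 22.1 to 128 CPM. Of these 4, miR-1 and miR-124 overlapped between the strains, and none passed the test. *lsy-6* had 62.1 and 53.6 CPM in *pry-1(mu38)*, against 91.6 and 80.8 CPM in N2. miR-791 had 42.6 and 54.4 CPM in *pry-1(mu38)*, against 99.6 and 63.5 CPM in N2. *lsy-6* and miR-791 were thus among the 15 of 85 miRNAs (17.6%) with both mutant libraries below both N2 libraries. The part of these tissue markers in the miR-235 and miR-71 values was not tested.

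**Figure D4:**
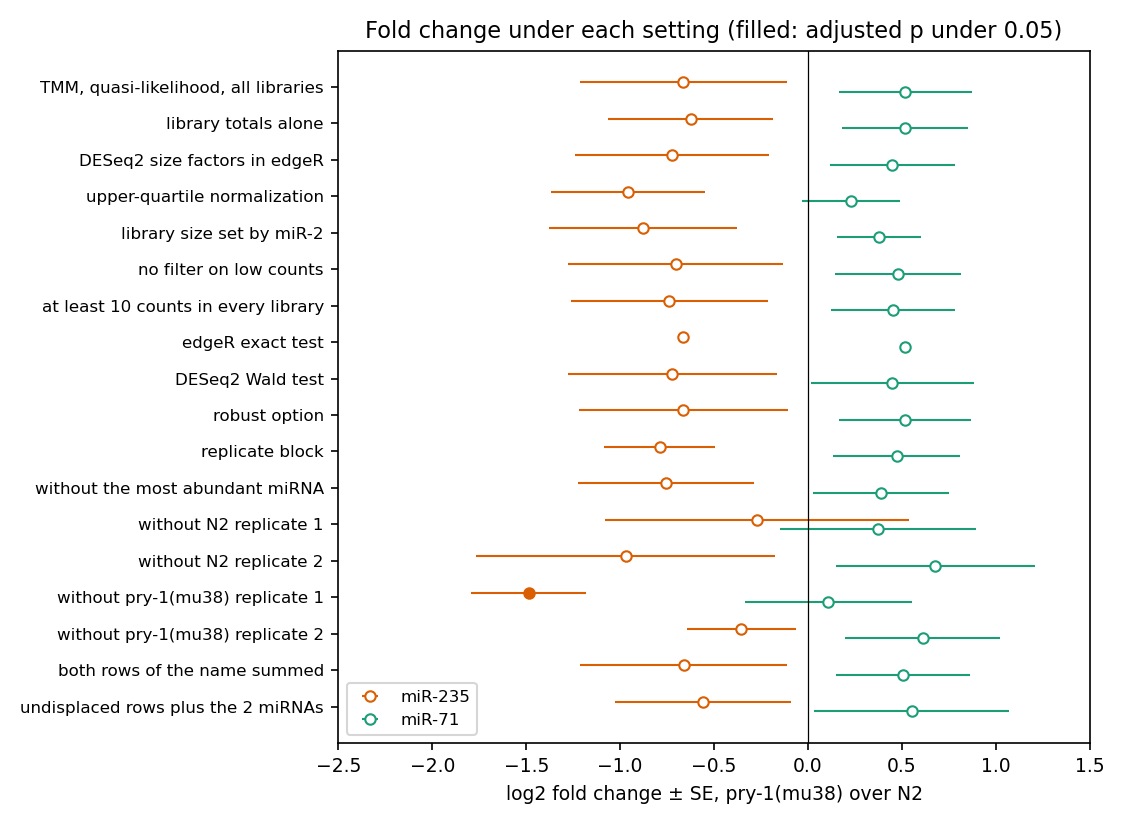
Log2 fold change of *pry-1(mu38)* over N2 with its standard error for miR-235 (orange) and miR-71 (green) under each setting except the rows as deposited; filled points have an adjusted p-value under 0.05, and edgeR's exact test gives no standard error. miR-235 stays below 0 and miR-71 above 0 in every setting plotted, and the single filled point is miR-235 without *pry-1(mu38)* replicate 1 at -1.49.

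A ratio within a library needs no scaling between libraries. The counts of miR-235 per count of miR-71 were 7.16 and 4.63 in *pry-1(mu38)*, against 19.6 and 9.75 in N2. Both mutant ratios lay below both N2 ratios. On the log2 scale they averaged 2.53 ± 0.44 in the mutant and 3.79 ± 0.71 in N2 (SD, n = 2 libraries each), a difference of -1.26. An exact two-sided permutation test gave p = 0.333, the smallest value that 2 libraries against 2 allow. Leaving out a library in turn kept the difference between -1.76 and -0.76. Many miRNAs shared this, as 28 of the other 84 (33.3%) had a lower ratio to miR-71 in both mutant libraries than in both N2 libraries, and 4 (4.76%) a higher one. miR-235 is 1 of the 28.

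The pair was also set against miR-2, the miRNA to which the study normalized its qRT-PCR. The N2 replicate 2 count of miR-2 was taken from 3 rows below its name, where the listed total was met exactly. The level of miR-2 itself was 2373 and 1606 CPM in *pry-1(mu38)*, against 1755 and 1905 CPM in N2, and overlapped. There were 47.1 and 26.0 counts of miR-235 per count of miR-2 in *pry-1(mu38)*, against 85.7 and 48.6 in N2. Both mutant values were lower, but 47.1 and 48.6 nearly met. For miR-71 the ratio to miR-2 was 6.58 and 5.60 in *pry-1(mu38)*, against 4.38 and 4.99 in N2, with both mutant values higher. Ratios to miR-2 were lower in both mutant libraries for 15 of 84 miRNAs (17.9%) and higher for 15 (17.9%), and the exact permutation p was 0.333 for both miRNAs. With miR-2 setting the library size, edgeR's log2 fold change was -0.88 for miR-235 and 0.38 for miR-71, both with an adjusted p = 0.658.

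**Figure D5:**
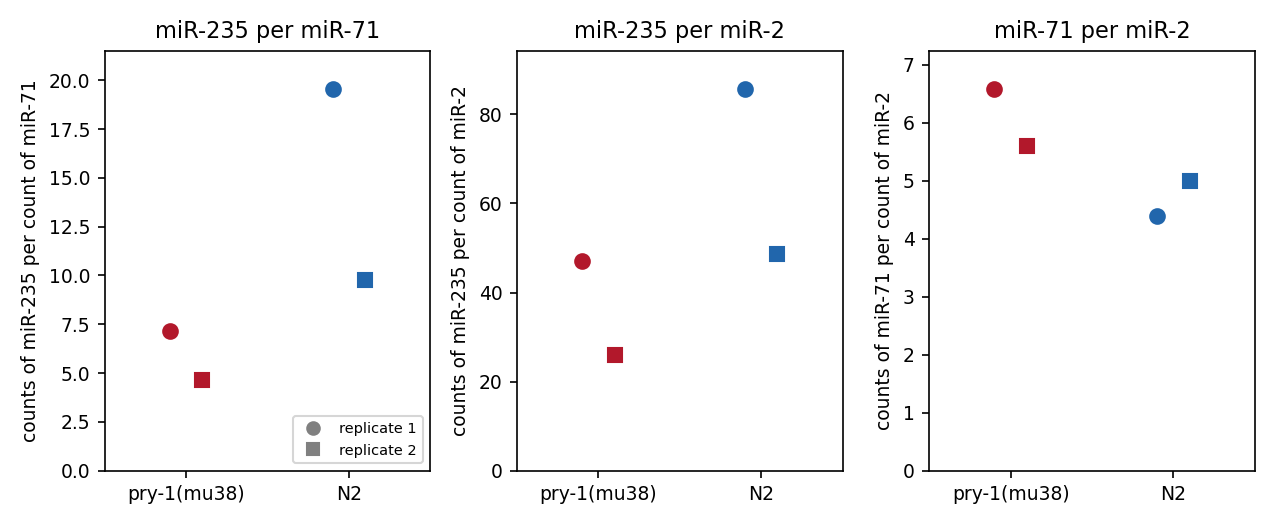
Counts of miR-235 per count of miR-71, of miR-235 per count of miR-2, and of miR-71 per count of miR-2 within each library (linear axes from 0), *pry-1(mu38)* left of N2; circles are replicate 1 and squares replicate 2. The strains separate in each panel, with the mutant lower for miR-235 (7.16 and 4.63 against 19.6 and 9.75 per miR-71) and higher for miR-71 per miR-2.

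Against miR-90, miR-228 and miR-1 the strains did not separate. By mean log2 ratio miR-235 was lower in the mutant by 1.19-fold, 2.07-fold and 1.71-fold, beside 1.85-fold per miR-2. The exact two-sided permutation test gave p = 0.667 with each of miR-90, miR-228 and miR-1. Per count of miR-90, which ranked above it in every library, miR-235 had 0.929 and 0.498 counts in *pry-1(mu38)*, against 0.951 and 0.694 in N2, and the groups overlapped. The level of miR-90 itself was lower in both mutant libraries, at 120345 and 83617 CPM in *pry-1(mu38)* against 158217 and 133500 CPM in N2 (log2 fold change -0.52, adjusted p = 0.549, edgeR). Per count of miR-228, the most abundant miRNA, it had 0.527 and 0.155 in the mutant, against 0.698 and 0.501 in N2, with overlap. Per count of miR-1, its genomic neighbor, it had 1657 and 325 in the mutant, against 1975 and 795 in N2, again with overlap. miR-1 itself had 67.5 and 128 CPM in *pry-1(mu38)*, against 76.2 and 117 CPM in N2. miR-71 per count of miR-228 came to 0.0736 and 0.0334 in the mutant, against 0.0357 and 0.0514 in N2, and overlapped too.

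Profiles over the 4 libraries were compared by the distance between log2 levels, each centered on its own mean, among miRNAs with a mean of at least 100 CPM. Of 45 miRNAs, the nearest to miR-71 was its neighbor miR-2 (distance 0.43), followed by miR-58 (0.47) and miR-243 (0.49). The nearest to miR-235 were miR-252 (0.51), miR-51 (0.54) and miR-49 (0.57). miR-1 lay under the minimum level and was not ranked.

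Other miRNAs with reported roles in starvation, dietary restriction, stress or lifespan were compared in the same fit. Of 8, 7 had a usable row, and 0 passed the test in either direction. Their median log2 fold change was -0.08, against 0.08 over all 85 miRNAs, with 3 above 0 and 4 below. *lin-4*, given above, had the highest log2 fold change of the list at 4.35 (standard error 1.61, adjusted p = 0.494, edgeR). It was among the 23 of 85 miRNAs (27.1%) with both mutant libraries above both N2 libraries. *miR-246*, which promotes lifespan, had 60.6 and 61.1 CPM in *pry-1(mu38)*, against 399 and 245 in N2, the lowest log2 fold change of the list at -2.40 (adjusted p = 0.217, edgeR). miR-34, a stress-response miRNA, had 696 and 355 CPM in *pry-1(mu38)*, against 609 and 529 in N2. miR-238 had 5629 and 5071 CPM in the mutant, against 4778 and 5184 in N2. miR-80, which acts in dietary restriction, had 27647 and 36822 CPM in the mutant, against 34504 and 36278 in N2. The strains overlapped for these 3 miRNAs, and also for miR-228 and miR-239b, whose log2 fold changes were 0.27 and -0.08.

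Each of the 2 names has 2 rows, taken as the arms of its hairpin, although the table does not label arms. The minor row of miR-235, the one with fewer counts, stands above its main row. It had 0 and 5 counts in *pry-1(mu38)*, against 31 and 21 in N2. The smallest count above 0 anywhere in the table was 5, so a 0 can stand for a few reads. The 0 of *pry-1(mu38)* replicate 1 is the cell of that name left over once the main count was placed, and no listed total checks it. The minor row held 0.00242% of both rows in *pry-1(mu38)* replicate 2, against 0.00350% and 0.00318% in N2, with Wilson intervals that overlap. The interval of the unchecked 0 of *pry-1(mu38)* replicate 1, 0% to 0.00108%, takes it as exactly 0 reads. Since it can stand for a few reads, that interval cannot be set against those of N2. The minor row of miR-71 had 657 and 444 counts in *pry-1(mu38)*, against 584 and 1834 in N2. It made up 1.31% and 0.985% of both rows in the mutant, against 1.27% and 2.64% in N2, and N2 replicate 2 stood above the other libraries. That count was read at the displacement of the main row and has no listed total to check it. When both rows were summed, which was added after the data were seen, the log2 fold change was -0.66 for miR-235 and 0.51 for miR-71.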

How the data were processed

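Small RNA of whole L1 animals was sequenced in 2 libraries per strain. Each value in the table that the authors deposited is a raw count of reads for a miRNA, not normalized. The study's methods describe reads matched perfectly to the genome (WBcel235) and to miRBase precursors, and the submitters' processing notes name BWA and DESeq. How the counts were made from the alignments, with which versions, and how reads shared by several miRNAs were treated are not given in the sources used here. Library sizes are the sums of all 219 rows.

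The read totals in the study's list of known miRNAs were used to place the rows. The count of N2 replicate 1 was held on a row of its own name, and the other 3 libraries were searched to 3 rows on either side. A row that met its total as deposited was used as it stood. A displaced match was accepted alone where the total was 1000 reads or more, 1 combination met it, and no other came within 10 reads. The remaining matches needed the displacement of the nearest placed miRNA (exact, or within 0.1% of the total), or a displacement shared by 2 successive miRNAs of at least 100 reads. Of 126 listed names, 87 were placed, 30 of them on an own row. miR-45 repeated the counts of miR-44 and was dropped, and edgeR's filter on low counts left 85 of 86 miRNAs. Placed rows held between 89.72% and 91.05% of each library.

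edgeR 4.0.16 in R 4.3.3 was used with TMM, filterByExpr, glmQLFit and glmQLFTest (two-sided, no covariate) and Benjamini-Hochberg adjustment over all 85. The standard error is the size of the log2 fold change divided by the square root of F. Placement and fit were tested on simulated data. Of the simulated rows placed, 0.889% were placed wrongly. The fit recovered 68.2% of simulated 4-fold changes, and 5.54% of its calls were wrong. DESeq2 1.42.0, other scalings, filters and inputs, a replicate block and the omission of each library were alternatives. Positions are those of the Ensembl annotation for WBcel235.

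miR-235, miR-71 and all lists were chosen with earlier results of these data known. The text names them, their neighbors within 20 kb, miRNAs with their seed, the 3 nearest profiles of each, the lists' members with a usable row, and miRNAs that change a rank. miR-90 and miR-228 as denominators were chosen after their values were seen.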

Additional observations from a re-analysis of the deposited data

How the results depend on the processing

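With all 4 libraries, each alternative kept miR-235 lower and miR-71 higher in *pry-1(mu38)*, without passing an adjusted p-value of 0.05. On all placed rows, the log2 fold change ran from -0.96 to -0.62 for miR-235 and from 0.23 to 0.52 for miR-71, and was -0.56 and 0.55 where only undisplaced rows and these 2 miRNAs were fitted, an alternative chosen after seeing the data. Upper-quartile normalization, which moved the median of all miRNAs by -0.22, gave the lowest value of both, and leaving out the most abundant miRNA moved that median by -0.11. Omitting a library in turn gave -1.49 to -0.27 for miR-235 and 0.11 to 0.68 for miR-71. The number of miRNAs past the threshold was 1 with edgeR's exact test and 1 with DESeq2's Wald test, *miR-246* in both, between 0 and 10 without a library (4 without *pry-1(mu38)* replicate 2, 10 without replicate 1), and 2 in the fit of undisplaced rows and these 2 miRNAs. The cause was not tested.

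The rows as deposited gave -2.66 for miR-235 and 1.40 for miR-71, because 1 count of each stands on another row. The undisplaced rows alone hold neither miRNA. Replicate numbers are not described as shared cultures, and the deviations of equally numbered libraries correlated at 0.307 over 85 miRNAs. With the replicate block the log2 fold change was -0.79 for miR-235 (edgeR adjusted p = 0.297) and 0.47 for miR-71 (edgeR adjusted p = 0.494), and 0 miRNAs were past the threshold, with 17 at an unadjusted p-value under 0.05. The difference of the miR-235 share was -4.13 percentage points, and between -7.30 and -0.95 without a library. That of the miR-71 share was 0.37, and between 0.10 and 0.65. With 2 libraries per strain, the spread and not the depth limits both comparisons.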
